A study of Mus musculus with 8 samples.

Results

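Desmosome components were followed in mouse breast cancer brain metastases (BCBM) sorted by their level of E-cadherin. The set held 10 genes, found by symbol among the 31894 named genes of the count table: the plakins Dsp (desmoplakin), Ppl (periplakin) and Evpl (envoplakin), the desmosomal cadherins Dsg2 (desmoglein 2) and Dsc2 (desmocollin 2), the plakophilins Pkp1, Pkp2, Pkp3 and Pkp4, and the membrane protein gene Perp. All 10 had enough reads to be tested. Tumor cells came from the PyMT E-cad-mCFP model, in which the MMTV promoter drives the polyoma middle T oncogene in mammary epithelium and endogenous E-cadherin carries the fluorescent protein mCFP. Mammary tumor pieces from this model were enriched by serial passage in the brain, and organoids were derived from the resulting brain tumors. Cells of these organoids were placed in the brains of FVB mice, whose genotype the labels give as wild type. The tumors were dissociated and flow sorted into live cells of high (E-cadHI) and low (E-cadLO) mCFP signal, and polyadenylated RNA of both fractions was sequenced from each of 4 mice, numbered 57, 58, 67 and 70. Both groups therefore shared the oncogene, the reporter and the host strain, and differed in the sort gate. The gate was set on the reporter fused to E-cadherin. The flow re-check of purity was made on the E-cadHI fraction only, while the paper also reports imaging of the reporter in both sorted fractions. Ages of the mice are not in the labels.

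Desmosomes are spot-like junctions that tie the keratin filaments of neighboring epithelial cells together. Their cadherins, desmogleins and desmocollins, meet in the space between the cells, while on the inner side plakoglobin and the plakophilins gather desmoplakin, which holds the filaments. They are known for giving epithelia resistance to pulling forces, and in the mammary gland they join luminal cells with each other and with the myoepithelium.

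Total counts ran from 9102781 to 15769200 per library. Levels are given as normalized CPM, the usual depth-scaled read count of a gene, with library totals adjusted by the TMM factors of edgeR, and differences as log2 of E-cadLO over E-cadHI. Luminal keratin genes were high in every library, with 1922 to 4399 CPM of Krt8 and 2264 to 6602 CPM of Krt18. Epithelial RNA was thus present in both groups, and which sorted cells carried it cannot be told from bulk RNA. Cdh1, the E-cadherin gene on whose protein the cells were sorted, differed by -0.17 (adjusted p = 0.809). Its level was lower in E-cadLO in mice 57, 67 and 70 and higher in mouse 58. The paper counts Cdh1 in its E-cadLO gene set and reports that RT-qPCR bore out its sequencing. The epithelial adhesion gene Epcam differed by -0.75 (adjusted p = 0.363), lower in 4 of 4 mice. Markers of brain cells moved with the groups: 12 of 12 microglia and macrophage markers, 9 of 9 astrocyte markers, 8 of 8 neuron markers and 7 of 8 oligodendrocyte markers had a higher fitted level in E-cadLO. Their summed CPM ranged from 34.4 to 280 in E-cadHI and from 225 to 1011 in E-cadLO for microglia and macrophages, and from 556 to 8631 and from 1319 to 34606 for oligodendrocytes. E-cadLO of mouse 57 stood apart by 1530 summed CPM of fibroblast markers, against 6.54 to 46.0 in the other 7 libraries. With the mouse fitted as a block in edgeR, brain cell genes that passed as higher in E-cadLO included Cx3cr1, P2ry12, Itgam, Gfap, Slc1a3, S100b, Mbp, Mobp, Snap25 and Ttr, a fit in which 0 genes passed once mouse 67 was left out. Ttr is a choroid plexus marker, and the choroid plexus and ependymal list did not move as a whole. Of its 4 tested genes, 2 had a higher and 2 a lower fitted level. Its summed CPM was 243 to 648 in E-cadHI and 75.8 to 1157 in E-cadLO. Among 12 tumor epithelial genes, 9 were lower, with sums of 7656 to 10395 CPM in E-cadHI and 5697 to 14160 CPM in E-cadLO. No defining marker of these cell types was at 0 in all E-cadHI libraries. In sorted bulk RNA, fewer tumor cells in a fraction and less desmosomal RNA per tumor cell cannot be told apart, and the part of the other cells in the values that follow was not tested, except where a value is given.

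The question was whether tumor cells with low E-cadherin also carried less mRNA for the desmosome. None of the 10 genes passed an adjusted p of 0.05 in either direction. The fitted log2 difference was above 0 for 5 (Dsp, Ppl, Pkp2, Pkp4 and Perp) and below 0 for the other 5, with a median of 0.0045 against 0.06 over the 13598 genes tested. In the quasi-likelihood test of edgeR without regard to mouse, 0.0% of tested genes were called higher and 0.0% lower, so the members' count of 0 says nothing particular about them, and 1109 genes were higher and 790 lower at an unadjusted p under 0.05. Among the members 1 gene, Dsp, was higher at that unadjusted level and 0 were lower. With the mouse as a block, 0.728% of genes were called higher and 0.0% lower, and the member higher at the unadjusted level was Pkp2 in place of Dsp. DESeq2 called 2.63% higher and 0.293% lower without the block, and 7.17% higher and 1.49% lower with it. No member was called in any of the 29 fits made, these included. All 10 were tested in 28 of them and 9 in the other, in which Pkp1 missed a minimum of 10 counts in every library. Their summed level was 487 to 550 CPM in E-cadHI and 495 to 685 CPM in E-cadLO.

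**Figure D1:**
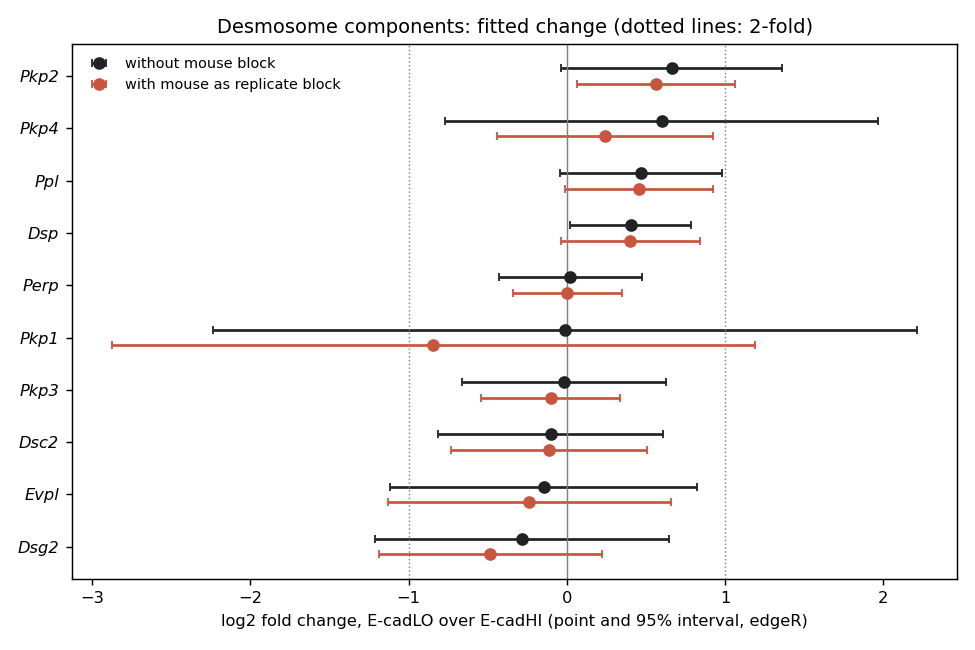
Fitted log2 difference of E-cadLO over E-cadHI for the 10 members (horizontal axis), without the block (black points) and with the mouse as a block (red points), with dotted lines at a 2-fold difference. Bars are 95% intervals, which spanned from 0.02 to 0.78 for Dsp and from -2.24 to 2.21 for Pkp1.

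The intervals set how much of a difference the 4 mice could have hidden. Without the block, the 95% interval left out a 2-fold fall for 7 of the 10 members, and it did so with the block for 7 as well. For Dsg2, Evpl and Pkp1 a 2-fold fall lay inside the interval. A 2-fold rise was left out for 7 members without the block and for 8 with it. With the block, the fitted differences of Ppl, Evpl, Dsg2, Dsc2, Pkp3 and Perp were 0.46, -0.24, -0.48, -0.11, -0.10 and 0.0034. Their adjusted p in that edgeR fit ran from 0.260 for Ppl to 0.992 for Perp.

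Direction was compared within each mouse, E-cadLO over E-cadHI. Dsp and Ppl were higher in E-cadLO in all 4 mice, a pattern that 16.8% of tested genes showed. No member was lower in all 4 mice, against 14.2% of tested genes, and 8 members went both ways among the mice. Mouse 57 had 5 members higher in E-cadLO, mice 58 and 67 had 6 each, and mouse 70 had 4. Their median log2 ratio was -0.04, 0.22, 0.08 and -0.09 in the same order. Libraries were also scaled to the summed counts of the tumor epithelial genes. The members' median fitted difference was then 0.29, against 0.198 over all tested genes. With the mouse as a block the members' median was 0.023, against 0.094 over all tested genes. Under this scaling Dsg2 became lower in all 4 mice, and Ppl was the member higher in all 4. This scale is a sum, so the most abundant genes of the list weigh most in it. In mouse 67 the sum was 10241 CPM in E-cadHI and 14160 CPM in E-cadLO, while the median log2 ratio of the listed genes was -0.02.

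**Figure D2:**
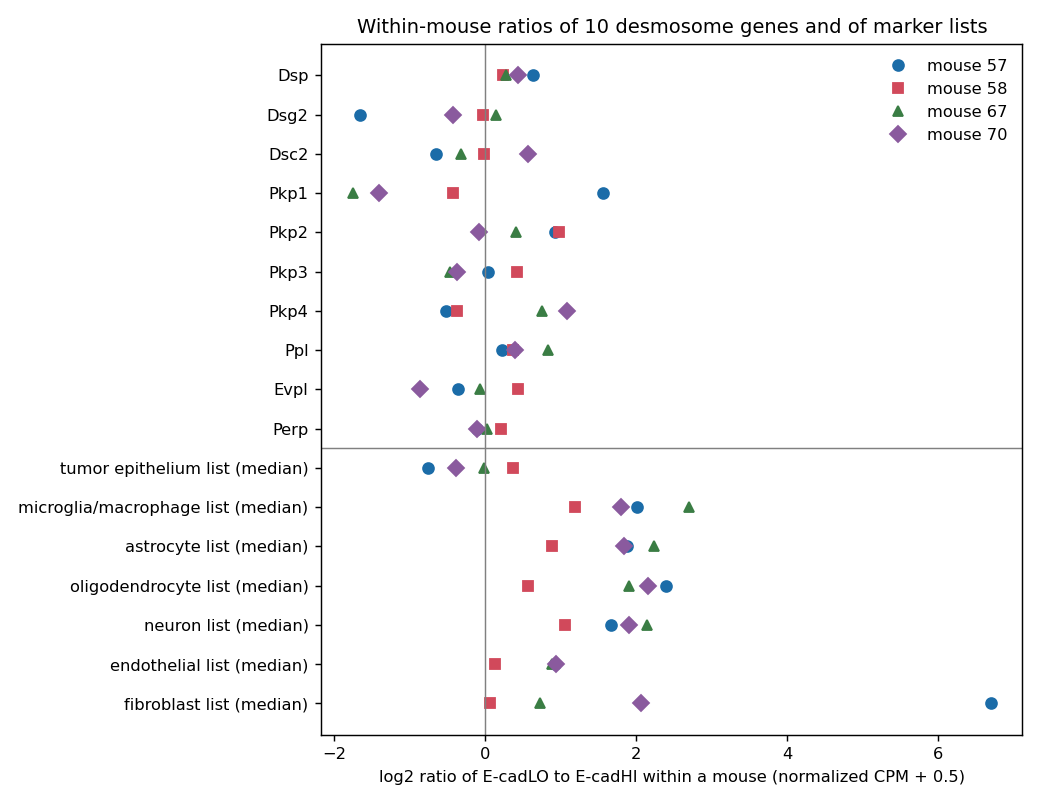
Log2 ratio of E-cadLO over E-cadHI within each mouse (CPM plus 0.5, horizontal axis) for each member and, under the line, the median over the genes of 7 marker lists, with 1 symbol per mouse. The points of Dsp and Ppl all lie above 0, the widest spread among members is that of Pkp1, from -1.75 to 1.55, and the lists of brain cells lie to the right of 0.

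Dsp codes for desmoplakin, the obligate link between the junction and keratin filaments (chromosome 13, 38151328 to 38198577, plus strand, GRCm38). In E-cadHI its level was 21.5, 24.4, 23.0 and 21.8 CPM in mice 57, 58, 67 and 70, and in E-cadLO 33.6, 28.7, 27.9 and 29.5 CPM. Every E-cadLO library thus lay above every E-cadHI library, which held for 1 of 10 members, against 3.9% of tested genes with E-cadLO higher and 4.2% with E-cadLO lower. The means were 22.6 ± 1.31 and 29.9 ± 2.53 CPM (SD, n = 4), and the fitted log2 difference was 0.40 (SE 0.17), a fold of 1.32 with a 95% interval of 1.01 to 1.72. Its unadjusted p in the quasi-likelihood test was 0.0413 and its adjusted p 0.343, so it did not pass over all genes, nor did it with DESeq2 (adjusted p = 0.259). With the mouse as a block its unadjusted p was 0.0692 and the adjusted p 0.285. These values rest on 248 to 317 reads per library in E-cadHI and 247 to 452 in E-cadLO. Scaled to the tumor epithelial genes, the within-mouse log2 ratios were 1.49, -0.05, -0.18 and 0.61, so that its direction was no longer shared by the 4 mice. Gm10129 overlaps 499 exonic bases of Dsp on the opposite strand. It had no row in the table, and whether counting used strand is not given in the sources used here.

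The start region of Dsp is shown because a window was at hand for it, as for Pkp4 and for no other member. The window runs from 250 bases before to 50 bases after the transcript start in RefSeq (GRCm38.p6, chr13:38151044-38151343, plus strand). Capitals mark the E-box CACCTG, read here on the other strand as CAGGTG, the letters to which repressors of the Snail and Zeb families are known to bind.

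Dsp: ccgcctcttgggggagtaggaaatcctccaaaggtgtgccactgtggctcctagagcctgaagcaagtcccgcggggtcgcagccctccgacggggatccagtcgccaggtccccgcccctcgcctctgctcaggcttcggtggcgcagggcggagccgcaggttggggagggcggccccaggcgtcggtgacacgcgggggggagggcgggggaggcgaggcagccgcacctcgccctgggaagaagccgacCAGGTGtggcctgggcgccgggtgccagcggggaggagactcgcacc

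The match starts at base 4 of the transcript. On either strand, 20.2% of the 32851 RefSeq windows of this length held the same letters. The letters AACNGGTT or AACCNGTT, known for Grainyhead-like factors, were in 2.09% of the windows and not in this one. A match describes the letters, and binding was not measured.

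Ppl and Evpl code for periplakin and envoplakin, which pair with each other at desmosomes and under the cornified envelope of skin (chromosome 16, 5086291 to 5132481, and chromosome 11, 116220559 to 116238077, both minus strand). Ppl stood at 23.8, 23.5, 21.1 and 16.6 CPM in E-cadHI and at 27.8, 30.4, 37.8 and 21.9 CPM in E-cadLO. It was higher in E-cadLO in every mouse, most in mouse 67 with a log2 ratio of 0.82, while the groups overlapped through the 21.9 CPM of mouse 70. The fitted log2 difference was 0.47 (SE 0.23, adjusted p = 0.384), with an interval of -0.04 to 0.98. Ppl kept this direction within every mouse under the scaling to tumor epithelial genes as well, with log2 ratios of 1.07, 0.08, 0.36 and 0.57. Evpl was low throughout, at 5.23, 7.68, 4.91 and 7.90 CPM in E-cadHI and 3.94, 10.6, 4.64 and 4.12 CPM in E-cadLO. Its E-cadLO library of mouse 58 was the highest of all 8 and the other E-cadLO libraries were the 3 lowest. Evpl differed by -0.15 (SE 0.43, adjusted p = 0.882), and 53 to 100 reads per library carried it. The partners Ppl and Evpl therefore did not move together in mice 57, 67 and 70, where the log2 ratios of Evpl were -0.37, -0.07 and -0.86.

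**Figure D3:**
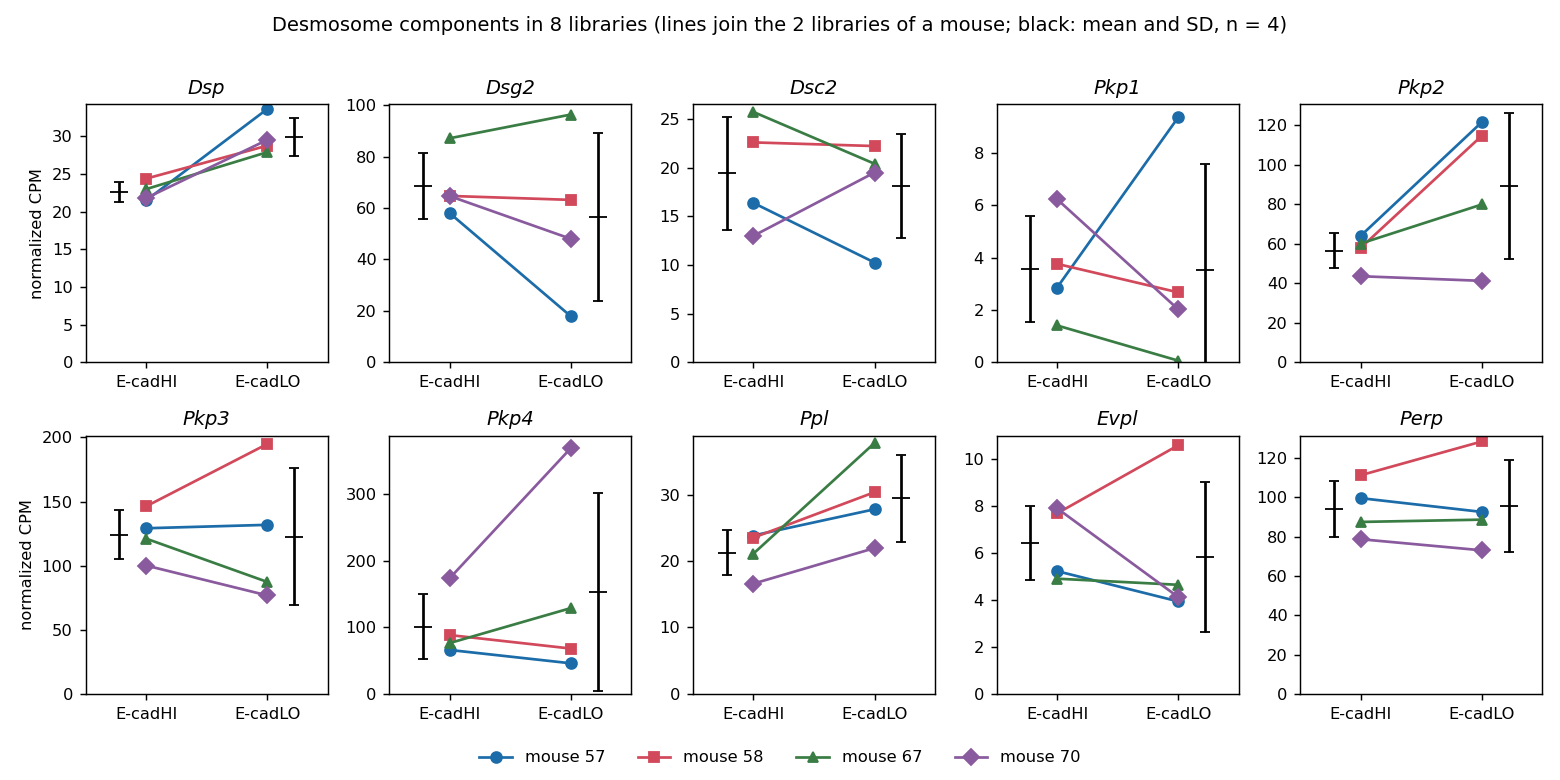
Normalized CPM of each member in each library, on an axis of its own for every gene, with E-cadHI and E-cadLO of the same mouse joined by a line. Black bars beside the points are means and SD (n = 4), cut at 0. The groups are apart for Dsp (21.5 to 24.4 against 27.9 to 33.6 CPM) and overlap for the other 9.

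Dsg2 and Dsc2 code for the desmosomal cadherins of simple epithelia, which bind across the gap between cells (chromosome 18, 20558074 to 20604521, plus strand, and 20030633 to 20059554, minus strand). Dsg2 stood at 58.0, 64.7, 87.1 and 64.6 CPM in E-cadHI and at 17.9, 63.2, 96.3 and 48.0 CPM in E-cadLO. E-cadLO of mouse 57 was lowest, with a log2 ratio of -1.67 to its own E-cadHI library, and mouse 67 went the other way at 0.14. That low library is also the one with the high fibroblast marker sum. The same library held the highest values of Dsp (33.6 CPM), Pkp2 (121.7 CPM) and Pkp1 (9.36 CPM). The part of fibroblasts in these values was not tested. The fitted difference of Dsg2 was -0.28 (SE 0.41, adjusted p = 0.745), and the interval from -1.21 to 0.64 did not leave out a 2-fold fall. Without E-cadLO of mouse 57 it was -0.0078. Relative to the summed counts of the tumor epithelial genes, the log2 ratios of Dsg2 were -0.82, -0.32, -0.32 and -0.24, below 0 in all 4 mice. Dsc2 stood at 16.4, 22.6, 25.7 and 13.0 CPM in E-cadHI and at 10.3, 22.2, 20.4 and 19.5 CPM in E-cadLO. It was lower in 3 mice and higher in mouse 70, and differed by -0.10 (SE 0.32, adjusted p = 0.887). The antisense gene Gm16090 shares 330 exonic bases with Dsg2 but had no more than 5 reads in any library.

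The other desmogleins and desmocollins, known mainly from stratified epithelia, were at or near the floor. Dsg1a, Dsg1b, Dsg1c, Dsg4 and Dsc1 had at most 3, 3, 2, 4 and 2 reads in any library, Dsc3 at most 9 and Dsg3 at most 19, and none had enough reads to be tested. A floor of 3 reads corresponds to 0.202 to 0.349 CPM in these libraries, which covers counting error only. The desmosomal cadherin RNA was thus largely that of Dsg2 and Dsc2 in both fractions.

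Plakophilins are armadillo-repeat proteins that cluster desmoplakin at the plaque. Pkp2, the plakophilin of simple epithelia and heart muscle (chromosome 16, 16213318 to 16272712, plus strand), stood at 64.1, 58.0, 60.2 and 43.6 CPM in E-cadHI and at 121.7, 114.8, 80.0 and 41.3 CPM in E-cadLO. It was higher in E-cadLO in mice 57, 58 and 67, and nearly level in mouse 70, with a log2 ratio of -0.08. The fitted difference of 0.66 (SE 0.31) was the largest among the members, with an adjusted p of 0.372 and an interval of -0.04 to 1.36. With the mouse as a block, Pkp2 differed by 0.56 (SE 0.21), with an unadjusted p of 0.0312 and an adjusted p of 0.219. Under the scaling to tumor epithelial genes the ratios of Pkp2 were 1.78, 0.69, -0.06 and 0.10, so that mice 67 and 70 changed side. Pkp3, found in most epithelia (chromosome 7, 141078218 to 141090510, plus strand), stood at 129.1, 146.2, 121.1 and 100.1 CPM in E-cadHI and at 131.8, 194.8, 87.3 and 76.8 CPM in E-cadLO. It was higher in E-cadLO in mouse 58 and lower in mice 67 and 70, and differed by -0.02 (SE 0.29, adjusted p = 0.980). Pkp1, abundant in the upper layers of skin (chromosome 1, 135871395 to 135919207, minus strand), was low at 2.86, 3.77, 1.41 and 6.23 CPM in E-cadHI and 9.36, 2.68, 0.0673 and 2.03 CPM in E-cadLO. A single read stood behind the E-cadLO value of mouse 67 and 126 reads behind that of mouse 57. The difference of Pkp1 could not be placed, at -0.01 with an interval of -2.24 to 2.21 (SE 0.99, adjusted p = 0.996). With the mouse as a block it was -0.84 (SE 0.87, adjusted p = 0.606), and without mouse 57 in that fit -1.71.

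The ratio of Pkp2 to Pkp3 does not depend on how libraries are scaled. It was 0.496, 0.397, 0.497 and 0.436 in E-cadHI and 0.923, 0.589, 0.916 and 0.538 in E-cadLO, so that every E-cadLO library lay above every E-cadHI library. The log2 change within mice was 0.89, 0.57, 0.88 and 0.30, a mean of 0.66 ± 0.28 (SD, n = 4). This pair was singled out after its values were seen, as 1 of the 45 pairs of members whose groups did not overlap, which is 7.89% of pairs among all tested genes. Ratios moved one way in all 4 mice for 8 of the 45 pairs, against 31.5% of all pairs, so both counts lay under the background and no test was made. Counted per kilobase of exon, Pkp2 made up 20.8 to 25.0% of the summed Pkp1, Pkp2 and Pkp3 level in E-cadHI and 26.3 to 38.2% in E-cadLO. Pkp3 held most of the remainder, with 74.0 to 77.7% and 59.7 to 72.4%.

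Pkp4, also called p0071, is a relative of the delta-catenins that is found at adherens junctions as well as desmosomes and is widely expressed, in brain too (chromosome 2, 59160850 to 59355208, plus strand). It stood at 65.9, 88.3, 76.3 and 173.7 CPM in E-cadHI and at 45.9, 68.0, 128.8 and 368.9 CPM in E-cadLO. Both libraries of mouse 70 were the highest of their groups, and the sign differed between mice, with log2 ratios of -0.52, -0.37, 0.75 and 1.08. The fitted difference of 0.60 (SE 0.61, adjusted p = 0.636) had an interval of -0.77 to 1.97, and without E-cadLO of mouse 70 it was -0.30. With the mouse as a block Pkp4 differed by 0.24 (SE 0.29, adjusted p = 0.669). Summed CPM of the 8 oligodendrocyte markers was 556, 1639, 962 and 8631 in E-cadHI and 1319, 3798, 4321 and 34606 in E-cadLO, with its highest values in the same 2 libraries. The sum of the 9 astrocyte markers was also highest in them, at 1147, 1175, 1319 and 3734 and at 734, 1509, 2021 and 10380. In mice 57 and 58, where Pkp4 was lower in E-cadLO, the oligodendrocyte sum was higher. The astrocyte sum was lower in mouse 57 and higher in mouse 58. The part of either cell type in the Pkp4 values was not tested.

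**Figure D4:**
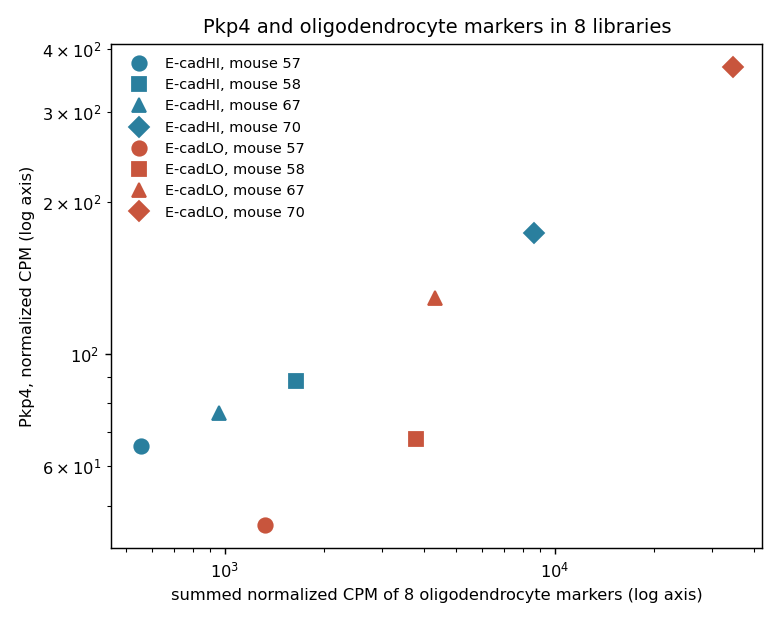
Normalized CPM of Pkp4 (vertical axis, log scale) against the summed CPM of 8 oligodendrocyte markers (horizontal axis, log scale), with 1 point per library, shaped by mouse and colored by group. The 2 libraries of mouse 70 lie at the upper right, at 173.7 and 368.9 CPM of Pkp4.

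RefSeq gives Pkp4 a pair of start windows on GRCm38.p6, and they differ in the E-box that the Dsp window holds. The first (chr2:59160600-59160899, plus strand) starts where the table places the gene and has no match. The other (chr2:59161619-59161918, plus strand) has 1 match, in capitals, at base -47 from its transcript start. The letters of the Grainyhead-like motif were in neither.

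Pkp4 first start: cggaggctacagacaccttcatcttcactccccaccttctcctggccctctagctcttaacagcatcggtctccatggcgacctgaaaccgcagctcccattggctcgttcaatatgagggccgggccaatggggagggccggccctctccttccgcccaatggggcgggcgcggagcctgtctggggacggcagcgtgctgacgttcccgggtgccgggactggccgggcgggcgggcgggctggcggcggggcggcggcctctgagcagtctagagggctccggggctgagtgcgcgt

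Pkp4 second start: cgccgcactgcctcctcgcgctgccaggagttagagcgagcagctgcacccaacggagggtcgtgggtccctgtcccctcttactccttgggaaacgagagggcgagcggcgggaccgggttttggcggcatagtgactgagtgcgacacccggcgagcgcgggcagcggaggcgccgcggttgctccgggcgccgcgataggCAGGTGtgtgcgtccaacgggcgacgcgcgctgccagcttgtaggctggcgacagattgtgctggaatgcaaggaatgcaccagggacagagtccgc

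Perp codes for a membrane protein of desmosomes with 4 spans that is known as a target of p53 and p63 (chromosome 10, 18845020 to 18857073, plus strand). It stood at 99.7, 111.3, 87.6 and 78.8 CPM in E-cadHI and at 92.6, 128.5, 88.7 and 73.1 CPM in E-cadLO. Its libraries ordered by mouse rather than by group, with mouse 58 highest and mouse 70 lowest in both. The log2 ratios within mice were -0.10, 0.21, 0.02 and -0.11, with the smallest SD of all members, 0.15. The fitted difference of 0.02 (SE 0.20, adjusted p = 0.968) had an interval from -0.43 to 0.47. Trp53 (p53) differed by 0.06 and Trp63 (p63) by 1.61, the latter on at most 93 reads per library and without a call.

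Levels of different members were compared per kilobase of exon, since longer transcripts collect more reads. In E-cadHI, Perp led with 48.3 ± 7.28 CPM per kilobase (SD, n = 4), followed by Pkp3 (34.3 ± 5.30), Pkp4 (17.7 ± 8.63), Pkp2 (10.5 ± 1.67) and Dsg2 (8.30 ± 1.54). Dsc2 (3.68 ± 1.10), Ppl (3.08 ± 0.48), Dsp (2.34 ± 0.14), Evpl (1.01 ± 0.25) and Pkp1 (0.71 ± 0.40) came after. E-cadLO kept this order of means except that Ppl (4.27 ± 0.95) passed Dsc2 (3.43 ± 1.01). In E-cadHI the neighbors Pkp4 and Pkp2, Pkp2 and Dsg2, Dsc2 and Ppl, and Evpl and Pkp1 were closer than the sum of their SDs. In E-cadLO this held for all neighbors except Dsp and Evpl. The spread between mice was wider in E-cadLO for 9 of the 10 members, Dsc2 being the exception. For scale, the plakoglobin gene Jup ranged from 59.2 to 78.5 CPM per kilobase in E-cadHI and from 36.1 to 83.2 in E-cadLO, and the means of Cdh1 were 24.4 ± 3.49 and 21.7 ± 12.2. Desmoplakin mRNA was therefore among the lower members per length in both fractions, with a coefficient of variation of 5.81% in E-cadHI and 8.46% in E-cadLO.

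**Figure D5:**
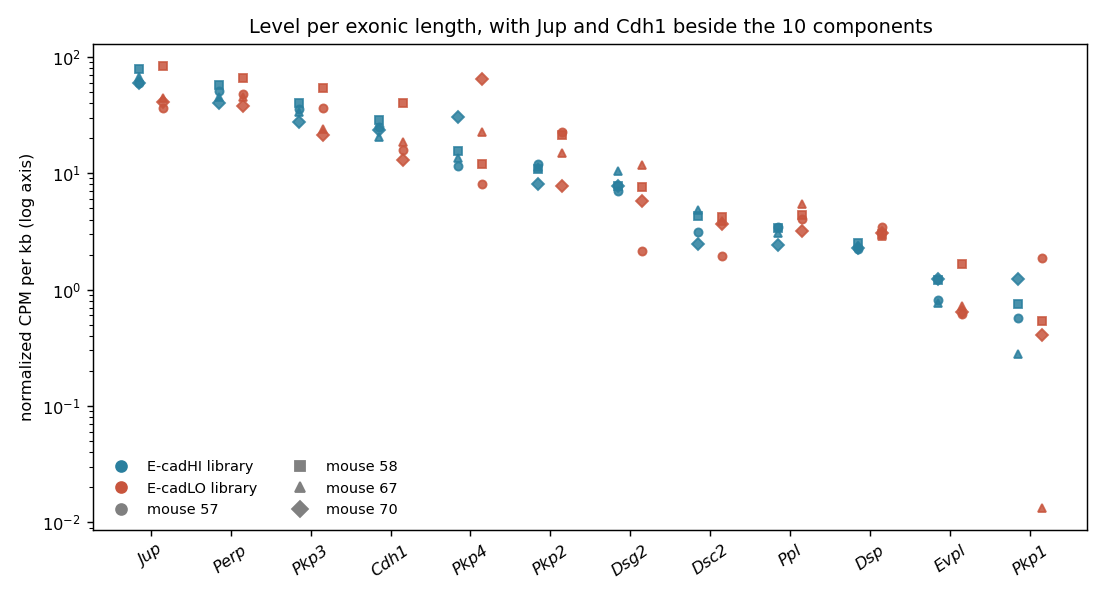
Level of each member, Jup and Cdh1 in CPM per kilobase of exon (log axis) in E-cadHI and E-cadLO, with 1 point per library, colored by group and shaped by mouse. Members span from Perp, at 48.3 CPM per kilobase in E-cadHI, to Pkp1, at 0.71.

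Genes that work beside the members were read from lists. Of 10 further desmosomal genes 2, Jup and Kazn, were tested, and 0 passed with edgeR or DESeq2. Jup, whose product links the desmosomal cadherins to desmoplakin, stood at 384, 505, 431 and 381 CPM in E-cadHI and 232, 535, 285 and 262 CPM in E-cadLO. It was lower in mice 57, 67 and 70 and differed by -0.37 (SE 0.27, adjusted p = 0.515). Jup thus had the opposite sign to Dsp and Pkp2, though neither sign was called.

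Genes with 1 direction in all 4 mice are named here after their values were seen, and edgeR called none of them with or without the block. Among tested genes, 16.8% were higher and 14.2% lower in all 4 mice. Other plakins in the table, Plec, Dst and Macf1, were higher in E-cadLO without a call by edgeR or DESeq2, and Dst (dystonin), which anchors keratin at hemidesmosomes, was so in 4 of 4 mice with a log2 difference of 0.68 (SE 0.20, adjusted p = 0.282). Of 6 hemidesmosome genes tested edgeR called 0, and DESeq2 with the mouse as a block called 1 higher and 1 lower. The lower one was Itga6, the integrin alpha 6 gene, at -0.95 in edgeR (adjusted p = 0.337) and -1.11 in the blocked DESeq2 fit (adjusted p = 0.0123). The higher one was Lama3, a laminin chain gene, at 1.78 in edgeR and 1.72 in the blocked DESeq2 fit (adjusted p = 0.0483). Of 9 genes known to regulate desmosomes 0 were called by edgeR or DESeq2 and 6 had a negative difference. Of these 9 genes, 3 were lower in all 4 mice. Grhl1 and Grhl2, Grainyhead-like factors that act on epithelial junction genes, were lower in all 4 mice by fitted log2 differences of -0.51 and -0.57 (adjusted p = 0.331 for Grhl2). The 3 delta-catenin genes tested and the 2 of the cornified envelope had 0 calls by either tool.

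Keratins are the filaments that desmoplakin holds. Of 6 tested, edgeR called 0 without the block and 1 with it, and DESeq2 called 1 in both cases. Krt17, a keratin of basal and stressed epithelia, stood at 23.2, 13.6, 13.2 and 17.4 CPM in E-cadHI and at 133, 109, 231 and 42.0 CPM in E-cadLO. All E-cadLO libraries lay above all E-cadHI libraries, the log2 difference was 2.94 without the block (adjusted p = 0.172), and with the mouse as a block Krt17 rose by 2.74 (adjusted p = 0.0427). DESeq2 called it without the block as well (adjusted p = 1.06e-07), while the blocked edgeR fit without mouse 67 called 0 genes. Krt8, Krt18 and Krt14 went both ways among the mice, with 2 mice higher and 2 lower for each, and differed by 0.09, 0.28 and -0.01.

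The genes closest to Dsp in level over the 8 libraries, by Pearson's r of log2 CPM, were Epb41l2 (0.976), Ascl3 (0.974), Gdf9 (0.963), 1500004A13Rik (0.960) and Gm15559 (0.959). These points share the 2 groups and the 4 mice, and with 13598 genes and 8 libraries the highest r values are high by selection. The members nearest to Dsp were Pkp2 (0.583) and Ppl (0.582), while Dsg2 had an r of -0.610.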

How the data were processed

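RNA-seq of sorted E-cadHI and E-cadLO cells from 4 mice was analyzed (8 libraries). Per the labels, the authors aligned single reads of polyadenylated RNA to GRCm38 with HISAT2 (2.1.0) and deposited a table of raw counts per gene, made with HTSeq according to the submitters' processing notes. The paper instead names Icount for the counting, and which tool made the deposited counts is not settled here. The strand setting is not given in the sources used here. Total counts ran from 9102781 to 15769200 per library, which limits the precision of low genes. The 365 rows without a gene name (0.064 to 0.095% of counts) were left out, and 0 value columns were unused. Groups and mouse numbers were taken from the sample titles.

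Counts were filtered with filterByExpr (13598 genes left), TMM scaled and tested two-sided with edgeR (4.0.16, R 4.3.3; glmQLFit, glmQLFTest) without the mouse, since the study's methods state no pairing, with Benjamini-Hochberg adjustment and a threshold of 0.05. Libraries of the same mouse deviated together (r of 0.275 to 0.698 against at most 0.153 between mice), so the mouse number in the titles pairs the samples, and a replicate block was fitted beside. The mice are the replicates. The 95% intervals were approximated from the F statistic. DESeq2 (1.42.0), other scalings, filters and left-out replicates were alternatives. Log2 ratios within mice used CPM plus 0.5. Exon lengths came from GENCODE (GRCm38) and start windows from a RefSeq table (GRCm38.p6). Windows were at hand for only 2 of the 10 members, Dsp and Pkp4, and are shown for both. The test was checked on simulated data with changes larger than any fitted for a member and without a mouse effect. That check does not cover differences of the members' size or the pairing of libraries. The members and lists were chosen with earlier results of these data known. Named genes were all members, genes of the other lists called with or without the block (at most 4 per list), Jup, the other desmosomal cadherins, Cdh1, Epcam, and the 5 genes closest to Dsp. Others were named after their values were seen, and 1 gene that the rule names is not reported here.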

Additional observations from a re-analysis of the deposited data

Results flagged for a closer look

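Evpl, the envoplakin gene, stood at 10.6 CPM in E-cadLO of mouse 58, far above the 3.94 to 4.64 CPM of the other 3 E-cadLO libraries. It was the 1 value set apart by Dixon's test at the 95% level among 33 groups of 4 values examined, where chance at 1 in 20 would give 1.65. These groups were the CPM of each fraction and the within-mouse log2 ratios, for the members and Jup.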

How the results depend on the processing

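No member was called in any of the 29 fits (Pkp1 was not tested with at least 10 counts in every library). Dsp (log2 difference 0.29 to 0.56, adjusted p 0.252 to 0.869), Ppl (0.32 to 0.60, adjusted p 0.201 to 0.806), Pkp2 (0.42 to 0.92, adjusted p 0.130 to 0.721) and Dsg2 (-0.70 to -0.01) kept their sign in all of them. The other 6 members changed sign in some fits, with no call on either side. Pkp1 had 0.037 with DESeq2, 0.039 with its size factors in edgeR, 0.17 with library totals and 0.45 scaled to tumor epithelial genes. Pkp3 had 0.023 with at least 10 counts in every library, 0.0018 with DESeq2, 0.0081 with its size factors, 0.041 with library totals and 0.14 scaled to tumor epithelial genes. Without the block, leaving out replicates gave -0.29 to 0.065 for Dsc2, -0.59 to 0.11 for Evpl, -0.14 to 0.14 for Perp, -1.29 to 0.62 for Pkp1, -0.32 to 0.17 for Pkp3 and -0.30 to 0.98 for Pkp4, where E-cadLO of mouse 70 set the lower end. With the replicate block, Pkp1 had -0.84 (-1.71 to -0.14 with a mouse left out) and Pkp4 0.24, and the reversed values with a mouse left out were 0.047 for Dsc2 (without 57), 0.0054 for Evpl (without 70), -0.050 for Perp (without 58), 0.033 and 0.0025 for Pkp3 (without 67 and 70) and -0.039 for Pkp4 (without 70). The members' median was 0.29 scaled to tumor epithelial genes and -0.0023 to 0.22 with replicates left out without the block (-0.09 to 0.03 with it). Scaled to tumor epithelial genes, 1 member (Ppl) was higher and 1 (Dsg2) lower in every mouse, and with any 1 mouse left out 1 member was lower in the remaining 3. The cause of these shifts was not tested.

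Over all genes, calls depended on the model. The replicate block gave 99 higher, and without mouse 57, 58, 67 or 70 it gave 425, 63, 0 or 2, with 24 and 3 lower without mice 57 and 58. The scalings chosen after seeing the data gave, with the block, 100 (DESeq2 size factors), 41 (library totals) and 370 higher with 26 lower (tumor epithelial genes). DESeq2 called 386 higher and 43 lower, and 1032 and 215 with the block. Without the block, edgeR called 23 higher with no filter, 3 with at least 10 counts in every library and 0 to 13 with a replicate left out, the latter without E-cadLO of mouse 70. Depth limited Pkp1 and Evpl most, with at most 126 and 100 reads in a library.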
